A study of Homo sapiens with 36 samples.

Results

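B-cell homing and retention receptors are the surface proteins by which a B-cell enters, moves through and leaves lymphoid tissue. The 9 genes described here were chosen by name from the 37549 genes listed in the count table, and all 9 were found: CXCR4, CXCR5, CCR6, CCR7, S1PR1, S1PR2, GPR183, ITGA4 and ITGAL. Their transcripts were measured by RNA sequencing of ribosomal RNA-depleted total RNA from MEC1, JVM2 and EHEB, 3 established human leukaemic B-cell lines. MEC1 carries mutated p53, and the other two lines are wild-type for it. Treated cells received fludarabine (50 µM), a purine analogue, ibrutinib (5 µM), which blocks Bruton tyrosine kinase, or idelalisib (10 µM), which blocks the delta isoform of phosphoinositide 3-kinase, and control cells received the vehicle DMSO. MEC1 cells were collected after 48 h, JVM2 cells after 72 h and EHEB cells after 96 h, which means that the line cannot be told apart from the length of exposure. There were 12 groups of 3 libraries, 36 in all, and a library is named by its line and number. The study's methods speak in general of repeated independent experiments, but the labels, which say only that treatment was in triplicate, do not tie the libraries of a group to separate cultures. The p-values thus measure the spread between libraries, which may be technical.

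Libraries held between 26590705 and 53538925 estimated counts. Those of the kinase inhibitors carry their own runs of numbers, starting with MEC1_184, JVM2_232 and EHEB_280. No DMSO or fludarabine library lies in these runs. A difference between ibrutinib or idelalisib and DMSO or fludarabine therefore cannot be told apart from a difference between number runs. Fludarabine against DMSO and idelalisib against ibrutinib compare libraries with nearer numbers, but each treatment has its own block of numbers. What the numbers mark is not stated, so a difference between blocks cannot be told apart from the drug here either. The B-lineage markers MS4A1, CD79A, CD79B, PAX5 and CD22 were all detected in every library, with summed levels of 596 to 1617 CPM (counts scaled to a common library total). The T-cell markers CD3D, CD3E and CD2 had at most 7, 226 and 362 counts in any library, each in EHEB. The monocyte markers CD14, LYZ and CSF1R had at most 15, 7 and 199, the last in MEC1. The NK-cell markers NCAM1, KLRD1 and NKG7 had at most 37, 899 and 195, KLRD1 in EHEB. EHEB libraries summed to 3.38 to 15.6 CPM over CD3D, CD3E and CD2, and the part of this in any result was not tested. CPM values within a line were scaled by the trimmed mean of M values (TMM). In bulk RNA, fewer cells that express a gene and less RNA per cell cannot be told apart.

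Chemokine receptors draw B-cells along gradients laid down by stromal cells. CXCR4 responds to CXCL12 of bone marrow and lymphoid stroma, CXCR5 to CXCL13 of follicles, CCR7 to CCL19 and CCL21 of the T-cell zone, and CCR6 to CCL20 of epithelia. The sphingosine-1-phosphate receptor S1PR1 leads cells out into blood and lymph, S1PR2 confines cells within the germinal centre, and GPR183 (also EBI2) senses oxysterols at the follicle border. ITGA4 and ITGAL encode the alpha chains of the integrins VLA-4 and LFA-1, which pair with ITGB1 and ITGB2 and bind VCAM1 and ICAM1.

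The bases upstream of a transcription start are shown for 3 receptors whose changes went in different directions: CXCR4, GPR183 and S1PR2. Sequences are the RefSeq windows of GRCh38.p14 that end at the base before the start, read 5′ to 3′ on the minus strand, on which all 3 genes lie. Capitals mark, on either strand and at any distance, the letters TATAAA, found in TATA boxes, and CACCC, which Krüppel-like factors bind. The forkhead motif GTAAACA was searched as well and was in none of these windows.
CXCR4 (chr2:136118150-136118399): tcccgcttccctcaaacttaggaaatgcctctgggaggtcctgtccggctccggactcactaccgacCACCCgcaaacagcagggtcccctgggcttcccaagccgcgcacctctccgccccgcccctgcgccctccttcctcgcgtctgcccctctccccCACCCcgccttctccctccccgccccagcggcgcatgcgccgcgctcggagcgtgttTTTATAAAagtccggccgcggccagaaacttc
GPR183 (chr13:99307400-99307649): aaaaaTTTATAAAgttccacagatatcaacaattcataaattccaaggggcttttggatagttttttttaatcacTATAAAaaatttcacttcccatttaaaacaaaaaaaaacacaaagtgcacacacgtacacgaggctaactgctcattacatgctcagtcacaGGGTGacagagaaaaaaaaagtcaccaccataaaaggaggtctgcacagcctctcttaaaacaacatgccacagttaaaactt
S1PR2 (chr19:10231332-10231581): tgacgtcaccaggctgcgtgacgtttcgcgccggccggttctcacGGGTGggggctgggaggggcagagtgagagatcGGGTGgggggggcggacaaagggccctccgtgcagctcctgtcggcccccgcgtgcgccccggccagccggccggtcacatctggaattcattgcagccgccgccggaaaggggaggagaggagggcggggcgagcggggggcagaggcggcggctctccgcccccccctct
In CXCR4, TATAAA began 32 and 30 bases before the start, on opposite strands and overlapping, and CACCC began 183 and 89 bases before it. This window lies inside the longer GENCODE gene model of CXCR4 but in none of its exons. Other CXCR4 windows, chr2:136117870-136118119 and chr2:136116236-136116485, held no TATAAA but did hold CACCC. GPR183 held TATAAA at 245, 243 and 175 bases and CACCC at 83 bases before the start. S1PR2 held no TATAAA and had CACCC at 205 and 172 bases. Of 35116 promoter windows of 250 bases, 10.7% held TATAAA, 54.7% CACCC and 2.98% GTAAACA. Such matches describe the sequence and say nothing of binding. Windows were found for 7 of the 9 members, not for CCR7 or ITGAL.

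In vehicle-treated cells the lines differed in their levels of receptor transcripts. Receptor protein was not measured. Levels across lines and genes are given in CPM per kb of transcript, scaled over all 36 libraries (mean ± SD, n = 3). GPR183 was the most abundant member in MEC1 (268 ± 13.2) and JVM2 (259.6 ± 8.89), and CCR7 in EHEB (248 ± 49.2). GPR183 stood at only 13.6 ± 0.727 in EHEB, 4.28 log2 units below MEC1 (log2 difference −4.28 ± 0.06 SE, adjusted p = 6.53e-10) and 4.24 below JVM2 (log2 difference −4.24 ± 0.06). MEC1 and JVM2 were not called apart in GPR183 (log2 difference −0.03, adjusted p = 0.628), although library size scaling called this difference (−0.18).

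CXCR4 had the widest range among the members that were detected in all 3 lines. It stood at 49.1 ± 2.28 CPM per kb in MEC1, 16.6 ± 1.66 in EHEB and 0.174 ± 0.0587 in JVM2, where its 12 libraries held 0 to 27 counts. All 3 lines differed from each other (log2 differences −1.53 for EHEB minus MEC1, −8.08 for JVM2 minus MEC1 and 6.54 for EHEB minus JVM2). CXCR5 went the other way. It was highest in JVM2 (8.84 ± 0.345 CPM per kb), while EHEB (0.988 ± 0.138) and MEC1 (0.358 ± 0.528) were not called apart (log2 difference 1.55, adjusted p = 0.138). That result rests on the DMSO library MEC1_39, without which the difference was 4.25 (adjusted p = 3.21e-06).

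CCR6 had no count in any of the 12 JVM2 libraries. Against a floor of 3 counts over the JVM2 DMSO group, its level was at least 419-fold higher in MEC1 and at least 580-fold higher in EHEB. EHEB and MEC1 were not called apart in CCR6 (log2 difference 0.50, adjusted p = 0.306) unless EHEB_134 was left out (0.83, adjusted p = 0.0357). CCR7 was lowest in MEC1 (45.8 ± 7.43 CPM per kb), higher in JVM2 (148 ± 0.867) and highest in EHEB (248 ± 49.2), and all 3 pairs of lines passed the test. ITGA4 ran from MEC1 (27.1 ± 0.230) over EHEB (19.8 ± 0.631) to JVM2 (11.7 ± 0.0989), again with every pair apart. ITGAL was lower in MEC1 (15.05 ± 1.82) than in JVM2 (31.2 ± 1.196) and EHEB (30.01 ± 1.93), which were not called apart (log2 difference −0.04). S1PR1 (11.1 to 14.3 CPM per kb) was called between no pair of lines. S1PR2 (21.1 to 25.0) was called between EHEB and JVM2 (log2 difference −0.22, adjusted p = 0.0203), a call lost without JVM2_86, JVM2_87 or EHEB_135 (adjusted p = 0.0680 to 0.0871). For EHEB against MEC1 it missed the threshold (log2 difference −0.17, adjusted p = 0.0576), but passed without MEC1_39 (−0.21, adjusted p = 0.0407) and with library size scaling (−0.29).

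Between DMSO-treated lines, 6 of the 9 members were called for JVM2 against MEC1, 5 for EHEB against MEC1 and 7 for EHEB against JVM2. A call means that the quasi-likelihood test of edgeR gave an adjusted p below 0.05, after Benjamini-Hochberg adjustment over all genes. The same tests called 63.8%, 67.4% and 59.6% of all genes, so most genes differed between these lines.

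**Figure D1:**
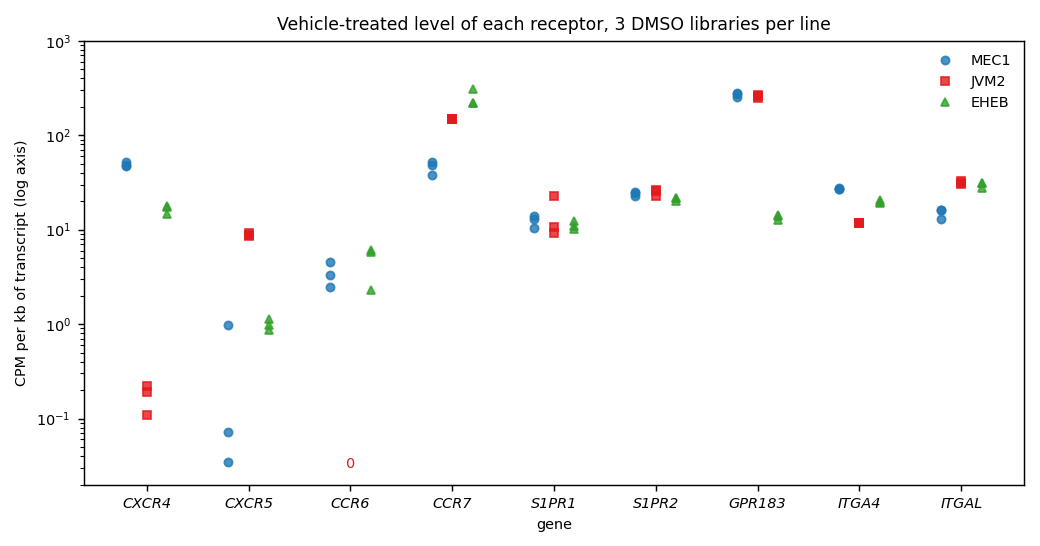
Level of each receptor in the DMSO-treated libraries, in CPM per kb of transcript on a log axis, with 1 point per library (3 per line) and a 0 where all 3 libraries held no count. CXCR4 and CCR6 were near or at 0 in JVM2, CXCR5 was highest there, and GPR183 was far lower in EHEB than in the other lines.

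Against DMSO, fludarabine changed 3 of 9 members in MEC1, 6 of 8 in JVM2 and 7 of 9 in EHEB. The same comparisons called 43.9%, 47.2% and 37.5% of all genes. Ibrutinib changed 5 members in MEC1, 1 in JVM2 and 4 in EHEB, where 47.6%, 29.4% and 19.7% of all genes were called. Idelalisib changed 7 members in MEC1, 4 in JVM2 and 6 in EHEB, against 55.0%, 44.2% and 33.3% of all genes. In JVM2 only 8 members could be tested, CCR6 being at 0. Across the lines, 13 of the 16 fludarabine calls were lower than DMSO (3 in MEC1, 4 in JVM2 and 6 in EHEB). Ibrutinib gave 5 higher and 5 lower and idelalisib 8 higher and 9 lower. Of all called genes, 48.4% to 50.6% were higher with fludarabine, 43.1% to 49.7% with ibrutinib and 45.3% to 50.2% with idelalisib, by line. With library size scaling the members split into 5 higher and 11 lower for fludarabine, 8 and 5 for ibrutinib and 9 and 7 for idelalisib. The members' median log2 fold change with fludarabine was −0.01 in MEC1, −0.63 in JVM2 and −0.64 in EHEB, beside 0.06, 0.06 and 0.02 over all genes. The 3 comparisons of a line share its DMSO libraries. ITGA4 was called in all 9 comparisons and S1PR1 in none.

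Positions below are those of the GENCODE gene models on GRCh38. CXCR4 (chromosome 2, 136114349 to 136119177, minus strand), the receptor that holds B-cells in CXCL12-rich stroma, rose with idelalisib in MEC1 and EHEB. In MEC1 the DMSO libraries stood at 81.6, 89.1 and 83.7 CPM, those with ibrutinib at 84.0, 86.9 and 83.2, and those with idelalisib at 155, 142.04 and 153. The idelalisib libraries thus lay above all others, and the ibrutinib libraries lay among those of DMSO. The log2 fold change over DMSO was 0.82 ± 0.06 with idelalisib (adjusted p = 9.30e-07) and 0.00 with ibrutinib (adjusted p = 0.984). In EHEB the values were 24.1, 28.3 and 29.3 CPM with DMSO, 28.6, 27.7 and 32.0 with ibrutinib and 57.8, 60.8 and 61.3 with idelalisib. The idelalisib libraries again lay above all others, and 1 ibrutinib library lay above every DMSO library. The log2 fold change was 1.14 ± 0.09 for idelalisib (adjusted p = 5.21e-06) and 0.11 for ibrutinib (adjusted p = 0.462).

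With fludarabine CXCR4 fell in EHEB, to 15.8, 18.7 and 18.2 CPM (log2 fold change −0.64 ± 0.09, adjusted p = 0.000291). In MEC1 the fludarabine libraries stood at 73.9, 77.3 and 68.6 CPM, a log2 fold change of −0.21 ± 0.06 (adjusted p = 0.0177). This small change depended on the scaling: with library sizes alone it was 0.038 (adjusted p = 0.658). The call was also lost with the stricter filter (−0.11, adjusted p = 0.144), in the joint fit (adjusted p = 0.495) and without MEC1_38 (adjusted p = 0.0614) or MEC1_48 (adjusted p = 0.0661). In JVM2, with 0 to 27 counts a library, log2 fold changes over DMSO of −0.998, 0.87 and −0.69 for fludarabine, ibrutinib and idelalisib all missed the threshold. Ibrutinib against fludarabine there (1.87, adjusted p = 0.0914) passed under DESeq2 (adjusted p = 0.0497), limma-voom (adjusted p = 0.0445) and the joint fit (adjusted p = 0.000407). Idelalisib against ibrutinib (−1.56, adjusted p = 0.216) passed in the joint fit (adjusted p = 0.00590).

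CXCR5 (chromosome 11, 118883892 to 118897787, plus strand), which guides B-cells into follicles, rose with fludarabine in JVM2 and EHEB. In JVM2 it went from 36.2, 38.4 and 35.8 CPM with DMSO to 53.1, 50.2 and 49.3 (log2 fold change 0.47 ± 0.08, adjusted p = 0.000934), without overlap. It fell with idelalisib to 28.6, 27.1 and 32.8 CPM (log2 fold change −0.32 ± 0.08, adjusted p = 0.0101) and stood at 41.5, 35.6 and 35.3 with ibrutinib (log2 fold change 0.02). The fall did not pass with library size scaling (−0.22, adjusted p = 0.0541), and a fit of all 36 libraries together called neither change in JVM2 (adjusted p = 0.641 and 0.780). In EHEB the values were 4.77, 4.11 and 3.62 CPM with DMSO and 17.3, 11.4 and 13.2 with fludarabine (log2 fold change 1.74 ± 0.51, adjusted p = 0.0193). The groups did not overlap, but the call was lost without EHEB_134, EHEB_135 or EHEB_142 (adjusted p = 0.0580 to 0.0649). With idelalisib CXCR5 stood at 0.705, 1.09 and 3.15 CPM in EHEB, below every DMSO library, and missed the threshold (log2 fold change −1.34, adjusted p = 0.0794). It passed without EHEB_288 (log2 fold change −2.17, adjusted p = 0.0112).

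In MEC1, CXCR5 was near the limit of detection. The DMSO libraries held 13, 7 and 153 counts, those with fludarabine 62, 71 and 200, those with ibrutinib 6, 44 and 0, and those with idelalisib none. The changes with fludarabine (log2 fold change 1.11 ± 1.32) and ibrutinib (−2.04 ± 1.44) missed the threshold. Against a floor of 3 counts over the idelalisib group, the level was at least 61.4-fold lower than with DMSO (adjusted p = 0.0244). That size rests mostly on MEC1_39, which held 153 of the DMSO counts and without which the call was lost (adjusted p = 0.0985), as it was without any 1 idelalisib library (adjusted p = 0.0529 to 0.0574). The gene shares 3913 bases with BCL9L on the opposite strand, and whether counting used strand is not stated. In MEC1, BCL9L rose with fludarabine (log2 fold change 1.11) and fell with ibrutinib (−1.31) and idelalisib (−1.97). Its level there was 11.6 ± 3.09 CPM with DMSO, above that of CXCR5, and reads of both genes in the shared bases cannot be told apart. In JVM2 and EHEB, BCL9L moved by at most 0.34 log2 units, falling by 0.34 with fludarabine in EHEB, where CXCR5 rose.

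CCR6 (chromosome 6, 167111807 to 167139141, plus strand), the CCL20 receptor, rose with both kinase inhibitors in MEC1. From 14.8, 10.6 and 8.003 CPM with DMSO it reached 48.5, 43.3 and 47.9 with idelalisib (log2 fold change 2.06 ± 0.34, adjusted p = 0.000318). With ibrutinib it stood at 38.3, 34.1 and 13.8 CPM, where the lowest library overlapped DMSO (log2 fold change 1.37 ± 0.33, adjusted p = 0.00559). Fludarabine libraries, at 12.8, 9.83 and 8.47 CPM, lay among those of DMSO (log2 fold change −0.10). In EHEB the DMSO libraries were uneven, at 18.7, 7.15 and 18.03 CPM, and those with fludarabine stood at 10.1, 7.18 and 7.15 (log2 fold change −0.85 ± 0.30, adjusted p = 0.0458). This call failed with limma-voom, library size scaling, the pairwise fit and the joint fit, and without EHEB_133, EHEB_135, EHEB_143 or EHEB_144 (adjusted p = 0.128 to 0.159). Ibrutinib (10.1, 9.66 and 12.5 CPM) and idelalisib (12.8, 10.6 and 11.6 CPM) did not pass in EHEB. Both did without EHEB_134, with log2 fold changes of −0.76 and −0.64 (adjusted p = 0.0153 and 0.0189). CCR6 lies almost whole within another protein-coding gene model on its own strand, which shares 27332 bases with it.

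CCR7 (chromosome 17, 40553769 to 40565472, minus strand), the T-cell zone receptor, rose with fludarabine in JVM2 only among the 3 fludarabine comparisons. There the DMSO libraries stood at 312, 314 and 311 CPM and the fludarabine libraries at 589, 596 and 607, far outside the spread (log2 fold change 0.94 ± 0.13, adjusted p = 0.000102). With fludarabine the log2 fold change was −0.01 in MEC1 and 0.19 in EHEB, and the effect in JVM2 differed from both (interaction 0.92 over MEC1, adjusted p = 0.00211, and −0.79 for EHEB minus JVM2, adjusted p = 0.00768). In EHEB, CCR7 rose with ibrutinib to 895, 612 and 986 CPM and with idelalisib to 698, 736 and 1025 CPM, from 649.7, 473 and 465 with DMSO. The ibrutinib libraries overlapped those of DMSO. The log2 fold changes were 0.65 ± 0.20 (adjusted p = 0.0381) and 0.63 ± 0.20 (adjusted p = 0.0283). Both calls were lost without EHEB_134 or EHEB_135, the former also without EHEB_280 or EHEB_282, and the latter without EHEB_288 (adjusted p = 0.0913 to 0.126 over these fits). In MEC1 the idelalisib libraries stood at 105, 138 and 151 CPM beside 116, 84.3 and 109 with DMSO (log2 fold change 0.35, adjusted p = 0.0837). This difference passed without MEC1_190 (0.48, adjusted p = 0.0295). In JVM2, ibrutinib gave 416, 288.2 and 271 CPM (log2 fold change 0.06), and without JVM2_232 the value turned to −0.16 (adjusted p = 0.0181). The idelalisib libraries of JVM2, at 301, 303 and 293 CPM, lay just below DMSO (log2 fold change −0.06).

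S1PR1 (chromosome 1, 101236865 to 101243713, plus strand), the egress receptor, was called in none of the 9 comparisons with DMSO (log2 fold changes −0.45 to 0.58, lowest adjusted p = 0.285). Its libraries varied widely within most groups. In JVM2 the DMSO libraries stood at 61.6, 24.9 and 29.0 CPM and the ibrutinib libraries at 31.1, 72.1 and 29.1. In EHEB they were 33.4, 29.5 and 28.0 CPM with DMSO and 71.5, 33.1 and 30.8 with ibrutinib. In MEC1 they were 36.97, 39.7 and 29.7 with DMSO and 13.1, 31.3 and 33.4 with ibrutinib. In each line 1 fludarabine library lay far below the other two, at 21.0 CPM (MEC1_48), 20.2 (JVM2_96) and 19.2 (EHEB_144) beside 36.7 to 58.4 for the rest. The highest library was 2.09 to 2.79 times the lowest in the fludarabine groups 2.32 to 2.55 times in the ibrutinib groups, 1.19 to 2.47 times with DMSO and 1.07 to 1.21 times with idelalisib. The idelalisib libraries stood at 37.02 to 47.9 CPM in all 3 lines. With this spread, standard errors of the S1PR1 changes were 0.35 to 0.42 on the log2 scale. The fit of single pairs of groups called idelalisib against DMSO in EHEB (log2 fold change 0.47, adjusted p = 0.00585), where the 12-library fit gave 0.48 (adjusted p = 0.329).

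S1PR2 (chromosome 19, 10221433 to 10231331, minus strand), the confining receptor, fell in MEC1 with the kinase inhibitors and in JVM2 and EHEB with fludarabine. In MEC1 the DMSO libraries stood at 92.4, 95.1 and 86.6 CPM, those with ibrutinib at 60.1, 56.1 and 62.0 and those with idelalisib at 52.1, 58.6 and 60.1. The log2 fold changes were −0.62 ± 0.07 (adjusted p = 3.92e-05) and −0.68 ± 0.07 (adjusted p = 1.31e-05), while fludarabine gave 0.03 (0.28 and a call with library size scaling). In JVM2 fludarabine lowered S1PR2 from 80.8, 91.5 and 92.4 CPM to 57.0, 56.7 and 53.2 (log2 fold change −0.66 ± 0.07), and in EHEB from 78.1, 76.9 and 72.1 to 56.4, 50.6 and 56.5 (−0.47 ± 0.08). Idelalisib raised it in EHEB, to 97.5, 109 and 109.6 CPM (log2 fold change 0.48 ± 0.08, adjusted p = 0.00105). With ibrutinib it stood at 77.6, 79.1 and 93.2 CPM there (0.14, and 0.24 and a call with library size scaling). In JVM2 the ibrutinib libraries stood at 90.5, 80.6 and 81.7 CPM (−0.07) and the idelalisib libraries at 98.7, 97.8 and 93.8, all above DMSO without passing (0.13, adjusted p = 0.127). Library size scaling (0.23) and the stricter filter (0.17) did call the latter. Idelalisib thus moved S1PR2 in opposite directions in MEC1 and EHEB, and the effects differed by 1.205 ± 0.10 on the log2 scale (adjusted p = 2.23e-07).

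S1PR2 lies almost whole within the span of DNMT1, which encodes the maintenance DNA methyltransferase on the same strand, and shares 9854 bases with it. As S1PR2 did, DNMT1 fell in MEC1 with ibrutinib (log2 fold change −0.96) and idelalisib (−1.40) and in JVM2 (−0.48) and EHEB (−0.14) with fludarabine. It rose with ibrutinib in JVM2 (0.26) and EHEB (0.19), where S1PR2 was not called. In EHEB with idelalisib, where S1PR2 rose, DNMT1 had a log2 fold change of −0.07 (adjusted p = 0.237). DNMT1 levels were 269 ± 10.1 CPM in MEC1, 63.2 ± 0.856 in JVM2 and 89.2 ± 3.20 in EHEB with DMSO. How far shared reads enter the S1PR2 values was not tested.

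GPR183 (chromosome 13, 99294539 to 99307399, minus strand), the oxysterol receptor, fell with fludarabine in all 3 lines. In MEC1 it went from 473, 487 and 444 CPM to 229, 209 and 224 (log2 fold change −1.09 ± 0.05, adjusted p = 1.42e-07). In JVM2 it went from 411, 438 and 425 to 254, 253 and 233.6 (−0.78 ± 0.05, adjusted p = 3.17e-07) and in EHEB from 21.1, 23.4 and 22.9 to 14.4, 14.8 and 11.9 (−0.71 ± 0.09, adjusted p = 9.30e-05). No fludarabine library overlapped DMSO in any line. Of the kinase inhibitors, only idelalisib moved GPR183 in opposite directions between lines. Idelalisib raised GPR183 in MEC1, to 647, 629 and 653 CPM (0.46 ± 0.05), but lowered it in JVM2, to 383, 371 and 363 (−0.19 ± 0.05), and in EHEB, to 12.3, 13.3 and 12.8 (−0.81 ± 0.09). The JVM2 change did not pass under library size scaling (−0.09). Ibrutinib raised it in MEC1, to 587, 597 and 612 CPM (0.36 ± 0.05, adjusted p = 0.000223), and gave 0.04 in JVM2. In EHEB ibrutinib libraries stood at 29.4, 26.9 and 27.4 CPM (0.31 ± 0.09, adjusted p = 0.0317), a call lost without EHEB_133, EHEB_134, EHEB_135, EHEB_280 or EHEB_281 (adjusted p = 0.0501 to 0.113) and with no filter.

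In EHEB the idelalisib libraries thus all lay below those of DMSO for GPR183 and the ibrutinib libraries all above them, and the direct comparison gave a log2 fold change of −1.12 ± 0.09 for idelalisib over ibrutinib (adjusted p = 2.12e-05). GPR183 lies within UBAC2, transcribed from the other strand. In MEC1 and JVM2, UBAC2 stood at 11.9 to 35.5 CPM, far below GPR183, and was not called. In EHEB it stood at 33.5 ± 0.550 CPM with DMSO, above GPR183, and fell with fludarabine (log2 fold change −1.12), ibrutinib (−0.43) and idelalisib (−0.44). Its part in the EHEB values was not tested.

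**Figure D2:**
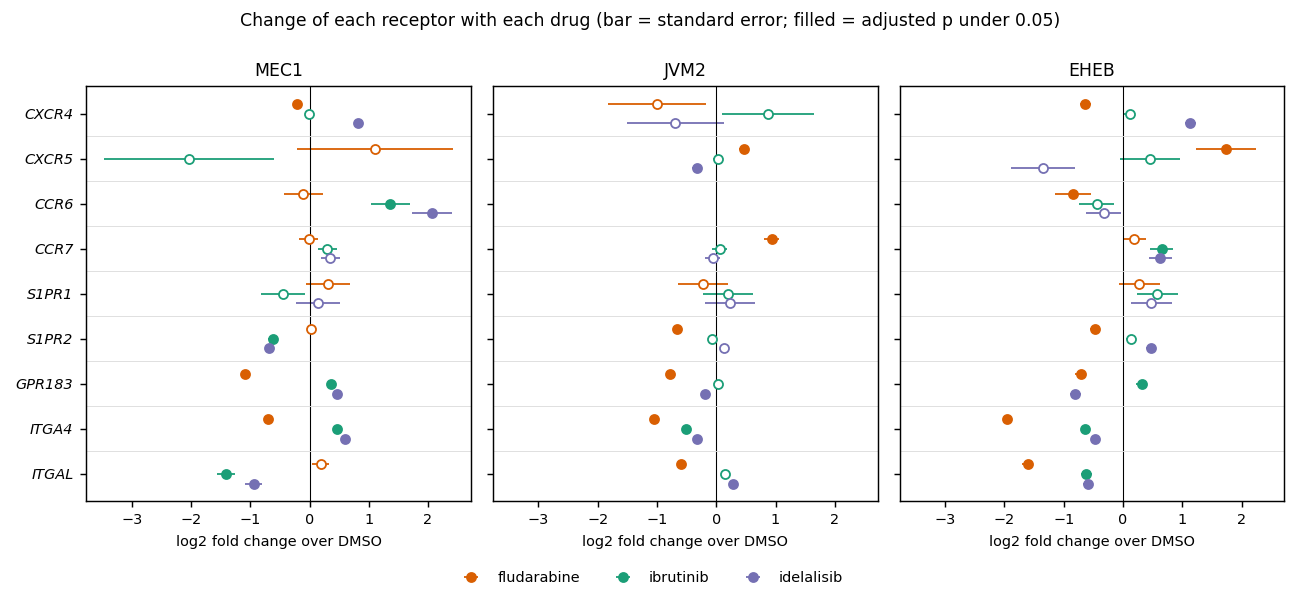
Log2 fold change of each member over DMSO in each line, on the same axis in all panels, with standard errors as bars and filled points for adjusted p below 0.05. CCR6 is absent from JVM2, where it had no counts, and CXCR5 with idelalisib in MEC1 is not drawn because that group held no counts. ITGA4 points are filled throughout, to the left of 0 except with the kinase inhibitors in MEC1.

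ITGA4 (chromosome 2, 181457202 to 181538940, plus strand), the alpha chain of VLA-4, was lower with fludarabine in every line. The DMSO libraries stood at 190.02, 192.04 and 189.6 CPM in MEC1 and fell to 120.2, 121 and 111 (log2 fold change −0.70 ± 0.05, adjusted p = 1.11e-06). In JVM2 they fell from 78.1, 76.9 and 76.4 to 39.1, 36.8 and 35.5 (−1.06 ± 0.05, adjusted p = 4.73e-08). In EHEB they fell from 131, 136 and 128 to 36.1, 33.5 and 31.9, a 3.90-fold lower level and the largest fall of any member in that line (−1.96 ± 0.06, adjusted p = 7.04e-09). The fludarabine effects differed between all 3 pairs of lines (interactions −0.39, −1.33 and −0.95 for JVM2 minus MEC1, EHEB minus MEC1 and EHEB minus JVM2).

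With the kinase inhibitors, ITGA4 rose in MEC1 and fell in JVM2 and EHEB. In MEC1 it reached 261, 273 and 258 CPM with ibrutinib (log2 fold change 0.47 ± 0.05) and 289.6, 289 and 287.7 with idelalisib (0.60 ± 0.05). In JVM2 it fell to 55.8, 51.8 and 54.3 CPM with ibrutinib (−0.52 ± 0.05) and 63.1, 59.7 and 63.0 with idelalisib (−0.32 ± 0.05). In EHEB it fell to 88.3, 81.8 and 82.4 with ibrutinib (−0.65 ± 0.06) and 97.2, 97.7 and 90.8 with idelalisib (−0.47 ± 0.06). No treated library overlapped DMSO, and the largest adjusted p over the 9 comparisons was 0.000535. The interaction tests set MEC1 apart from both other lines for ibrutinib (−0.96 and −1.11) and idelalisib (−0.85 and −1.02). At its 3′ end ITGA4 shares 3900 bases with CERKL on the other strand, which stood at 25.0 ± 2.53 CPM in MEC1 with DMSO, below ITGA4. There CERKL changed by −0.31 with fludarabine, 0.76 with ibrutinib and 0.89 with idelalisib. It also fell with fludarabine in JVM2 (−2.05) and with ibrutinib in EHEB (−1.72), and the part of shared reads was not tested.

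ITGAL (chromosome 16, 30472658 to 30523567, plus strand), the alpha chain of LFA-1, fell in most comparisons, but not in MEC1 with fludarabine or in JVM2 with the kinase inhibitors. In EHEB the DMSO libraries stood at 158, 155 and 140.5 CPM and fell to 55.5, 47.3 and 46.1 with fludarabine (log2 fold change −1.61 ± 0.09, adjusted p = 2.18e-07). They fell to 102, 97.8 and 96.3 with ibrutinib (−0.62 ± 0.09) and 89.1, 102 and 110.0 with idelalisib (−0.59 ± 0.09). In MEC1, ITGAL fell from 68.7, 85.5 and 85.7 CPM to 38.1, 26.0 and 26.3 with ibrutinib (−1.41 ± 0.15, adjusted p = 1.60e-05) and 46.4, 38.8 and 39.9 with idelalisib (−0.94 ± 0.15, adjusted p = 0.000213). With fludarabine the MEC1 libraries stood at 93.1, 87.4 and 93.2, above every DMSO library, without passing the test (0.19, adjusted p = 0.312; 0.44 and a call with library size scaling). In JVM2 fludarabine lowered it from 162, 150.0 and 154 to 107, 104 and 98.3 CPM (−0.59 ± 0.07) and idelalisib raised it to 208, 186.5 and 176 (0.29 ± 0.07, adjusted p = 0.00487). Ibrutinib gave 176, 162 and 179 CPM (0.15, adjusted p = 0.126, and 0.23 with a call under library size scaling). ITGAL overlaps 5 other gene models. One, a long noncoding RNA gene on the other strand, shares 12174 bases with it, and the part of shared reads was not tested.

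Idelalisib was compared with ibrutinib directly, both drugs acting on kinases below the B-cell receptor. The test called 1 of 9 members in MEC1, 3 of 8 in JVM2 and 4 of 9 in EHEB, beside 15.4%, 18.7% and 15.9% of all genes. CXCR4 was higher with idelalisib in MEC1 (log2 fold change 0.82 ± 0.06, adjusted p = 0.000322) and EHEB (1.03 ± 0.09, adjusted p = 4.33e-05). GPR183 was lower with idelalisib in EHEB, as given above, and in JVM2 (−0.22 ± 0.05, adjusted p = 0.00970). CXCR5 was lower in JVM2 (−0.34, adjusted p = 0.0167) and EHEB (−1.79, adjusted p = 0.0453), ITGA4 was higher in JVM2 (0.20, adjusted p = 0.0225) and S1PR2 in EHEB (0.34, adjusted p = 0.0164). These last 4 calls were each lost in 3 or 4 of the 6 fits that left out a library (adjusted p = 0.0503 to 0.150). In JVM2 they were lost without JVM2_232, JVM2_238 or JVM2_239 for CXCR5 and without JVM2_233, JVM2_234, JVM2_238 or JVM2_240 for ITGA4. In EHEB they were lost without EHEB_281, EHEB_282, EHEB_286 or EHEB_287 for CXCR5 and without EHEB_280, EHEB_281, EHEB_287 or EHEB_288 for S1PR2. Without single libraries the CXCR5 difference in EHEB ran from −2.62 to −1.43. ITGAL in MEC1 missed the threshold (0.47, adjusted p = 0.0524) and passed without MEC1_184 (0.65, adjusted p = 0.0112), and S1PR2 in JVM2 likewise without JVM2_232 (0.20, adjusted p = 0.0590, and adjusted p = 0.0412 without it).

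The kinase inhibitors were also set against fludarabine, across number runs, so drug and run cannot be told apart here. Ibrutinib differed from fludarabine in 6 members in MEC1, 6 in JVM2 and 5 in EHEB, with 51.4%, 42.7% and 33.3% of all genes called. Idelalisib differed from it in 7, 6 and 5 members, with 56.2%, 41.1% and 42.7% of all genes called. ITGA4 was higher with either inhibitor in all 3 lines, by 1.17 and 1.2996 log2 units in MEC1, 0.54 and 0.74 in JVM2 and 1.31 and 1.49 in EHEB for ibrutinib and idelalisib. GPR183 was higher by 0.59 to 1.55 in every such comparison but idelalisib in EHEB (−0.09, adjusted p = 0.454). ITGAL was lower than with fludarabine in MEC1 (−1.60 and −1.13) and higher in JVM2 (0.74 and 0.88) and EHEB (0.99 and 1.02). CCR7 was lower in JVM2 (−0.88 and −0.998). The small CXCR4 difference for ibrutinib in MEC1 (0.21, adjusted p = 0.0153) was lost with library size scaling (0.032, adjusted p = 0.710), with no filter (adjusted p = 0.0722), in the joint fit (adjusted p = 0.628) and without MEC1_48 (adjusted p = 0.0644).

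Whether a drug's effect differed between lines was tested as an interaction over the 18 libraries of DMSO and that drug. For fludarabine, 4 of 8 members were called for JVM2 against MEC1, 4 of 9 for EHEB against MEC1 and 3 of 8 for EHEB against JVM2, beside 25.2%, 29.4% and 22.2% of all genes. For ibrutinib the counts were 5, 4 and 2, beside 25.9%, 26.4% and 12%. For idelalisib they were 6, 5 and 4, beside 35%, 38% and 21.3%. ITGAL differed in all 9 of these tests, ITGA4 in 7, S1PR2 in 7 and GPR183 in 6. S1PR1 was called in none of them, although leaving out JVM2_85 brought out idelalisib in JVM2 against MEC1 (0.65, adjusted p = 0.00747). CXCR5 was called once, for idelalisib in JVM2 against MEC1, where the MEC1 idelalisib group held no counts.

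Beyond the members, 61 further genes of the same system were listed by role and found in the table. Of those tested, 18 were higher and 18 lower with fludarabine in MEC1 (of 54), 17 and 18 in JVM2 (of 54) and 10 and 26 in EHEB (of 56). With ibrutinib the counts were 10 and 25, 13 and 15, and 5 and 23, and with idelalisib 11 and 26, 17 and 17, and 11 and 23. These calls make up 50.0% to 68.5% of the listed genes tested, beside 19.7% to 55.0% of all genes in the same comparisons. The 19 genes tested for signalling below the receptors include some that transmit signals and some, such as RGS1 and GRK2, that dampen them. Of the 19, 8 to 15 were lower and 1 to 4 higher in each comparison with DMSO. The lower ones were 42.1% to 78.9% of the 19, beside 11.2% to 27.4% of all genes. Medians were −0.57 to −0.15, beside −0.0014 to 0.08 over all genes. The lists were chosen with earlier results of these data known, and the shares over all genes were not matched for expression level. What these differences from all genes reflect was not tested.

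RAC2, a small GTPase of the actin machinery, fell in all 9 comparisons (log2 fold changes −0.92 to −0.32). GRK2, the kinase that desensitises chemokine receptors, fell in 8 (−1.09 to −0.24) and FERMT3, which helps to activate integrins, in 7 (−0.83 to −0.31). RGS1, which dampens chemokine signalling, fell in 7 (−1.49 to −0.41) and rose in EHEB with the kinase inhibitors (0.20 and 0.38). GNA13, the G protein below S1PR2 and P2RY8, fell in all 9 (−0.78 to −0.22). It lay outside the naming rule and was added after its values were seen.

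Among the integrin partners and adhesion molecules, ITGB2, which pairs with ITGAL, fell in 7 comparisons (−0.89 to −0.63) and rose with fludarabine in MEC1 (0.24). ITGB1, the partner of ITGA4, is named for that pairing and fell in 4, the kinase inhibitors in JVM2 and EHEB (−0.51 to −0.19). With fludarabine, which lowered ITGA4 in every line, ITGB1 was not called (log2 fold changes 0.14, −0.05 and −0.08 in MEC1, JVM2 and EHEB). ITGB7, the other beta chain that pairs with ITGA4 and likewise outside the naming rule, changed in all 9 comparisons. It rose in MEC1 with fludarabine (0.48) and in JVM2 with fludarabine (0.30) and ibrutinib (0.40), and fell in the other 6 (−1.21 to −0.21). ITGAM, an alpha chain that shares ITGB2, rose in 7 (0.64 to 2.69), all but the kinase inhibitors in EHEB. VCAM1, the ligand of VLA-4, rose in 8 (0.24 to 2.43), most with fludarabine in MEC1. SELPLG, the selectin ligand PSGL-1, fell in 7 (−1.40 to −0.31).

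CD69, which takes S1PR1 off the cell surface, split the lines as GPR183 did under idelalisib. In MEC1 it rose from 61.5 ± 1.73 CPM to 124 ± 10.3 with ibrutinib (log2 fold change 1.02 ± 0.08) and 273 ± 24.6 with idelalisib (2.15 ± 0.08). In JVM2 it fell from 90.4 ± 4.52 to 41.1 ± 1.52 with fludarabine, 35.6 ± 1.296 with ibrutinib and 52.9 ± 1.99 with idelalisib (−1.14, −1.34 and −0.77), and in EHEB it fell with all 3 drugs (−0.66, −1.01 and −0.33). P2RY8, which confines B-cells together with S1PR2, fell in 7 comparisons (−0.68 to −0.24) and rose with idelalisib in JVM2 (0.18). SGPP1, a sphingosine-1-phosphate phosphatase, fell in 7 (−0.81 to −0.27), all but fludarabine in JVM2 and EHEB. FOXO1, a transcription factor linked to homing receptor genes, fell in 6 (−1.17 to −0.22) and rose with fludarabine in JVM2 (0.25). KLF2, a Krüppel-like factor on the same list but outside the naming rule, went mostly the other way. It rose with idelalisib in MEC1, JVM2 and EHEB (1.51, 2.25 and 1.41) and with ibrutinib in MEC1 and JVM2 (1.63 and 0.79). With fludarabine it fell in EHEB (−2.45). Its level in JVM2 with DMSO was only 1.02 ± 0.261 CPM. The other listed factors, BACH2 and BCL6, rose in 3 each and fell in 2 and 4.

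The genes whose pattern was most like that of each member were found over the 36 libraries, on log2 CPM centred within each line, among 11927 genes. For ITGA4 these were TNFRSF13C (r = 0.944), the BAFF receptor, and SLAMF6 (r = 0.944). For S1PR2 they were WDTC1 (r = 0.949) and FOXP4 (r = 0.940), for ITGAL FLOT2 (r = 0.931) and PTPRS (r = 0.903), and for GPR183 HIST2H2BF (r = 0.911) and KPNA3 (r = 0.911). Likeness was lower for CXCR5, with ITM2C (r = 0.818) and LMNA (r = 0.817), for CCR7, with PDE4B (r = 0.727) and IL13RA1 (r = 0.711), and for CXCR4, with UNC13C (r = 0.711) and TXNDC16 (r = 0.685). It was lowest for S1PR1, with ARHGAP26 (r = 0.595) and IL4R (r = 0.551). The libraries share lines, groups and number runs, so these values only describe.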

How the data were processed

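RNA from MEC1, JVM2 and EHEB cells was sequenced by the authors, who trimmed reads with Trimmomatic, aligned them to GRCh38 with HISAT2 2.1 and counted reads per gene with StringTie 1.3.4. What they deposited are estimated counts, given as whole numbers and not normalised. The sources used here do not give the annotation release, read length or use of strand. A blank symbol (0.00384% of counts) was left out. Libraries were grouped by sample title. Libraries of a group differed from each other by more than counting noise (chi-square over its degrees of freedom 27.2 to 53.6), so none was a duplicate.

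The 12 libraries of a line were fitted together in edgeR 4.0.16 (R 4.3.3) with TMM scaling, the filterByExpr filter (minimum count 10, total 15) and the quasi-likelihood test. Adjustment was by Benjamini-Hochberg over all genes tested, and a call is an adjusted p below 0.05. Differences of effect between lines were tested as interactions. Errors of log2 fold changes are standard errors, and a group at 0 was set to a floor of 3 counts. Alternatives were limma-voom (limma 3.58.1), DESeq2 1.42.0, scaling by library size, no filter, a stricter filter (mean CPM of at least 5), a fit of the 6 libraries compared (the pairwise fit), a joint fit of 36 libraries, and each library left out. Positions, transcript lengths and overlaps are from GENCODE release 44 and promoters from RefSeq.

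The members and gene lists were chosen with earlier results of these data known. Other genes are named where called in the same direction in at least 6 of 9 comparisons, at most 4 per role by their smallest change, and for each member detected in all lines the 2 most alike genes. Marker lists of plasma cells (233 to 710 CPM summed) and NK cells (1.16 to 25.1 CPM summed) were read only as checks of the lines, as were the T-cell and monocyte lists (monocyte sum at most 5.94 CPM). A further B-lineage marker is not reported here.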

Additional observations from a re-analysis of the deposited data

Results flagged for a closer look

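The effects of a drug differed between lines for the members below, by the interaction test in edgeR. Values are differences of log2 fold changes over DMSO, each the first line minus the second, and the lines also differ in exposure time. JVM2 minus MEC1 is given first, then EHEB minus MEC1, then EHEB minus JVM2, unless said otherwise.

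For fludarabine, ITGA4 differed in all 3 pairs (−0.39, −1.33 and −0.95), as did ITGAL (−0.81, −1.87 and −1.06). S1PR2 differed for JVM2 minus MEC1 (−0.72) and EHEB minus MEC1 (−0.57), CCR7 for JVM2 minus MEC1 (0.92) and EHEB minus JVM2 (−0.79), and GPR183 for EHEB minus MEC1 (0.30). The last was lost in 5 of 12 fits with a library left out, those without MEC1_37, MEC1_38, EHEB_133, EHEB_142 or EHEB_143 (adjusted p = 0.0637 to 0.0960), and under library size scaling.

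For ibrutinib, ITGAL differed in all 3 pairs (1.58, 0.80 and −0.78). ITGA4 differed for JVM2 minus MEC1 (−0.96) and EHEB minus MEC1 (−1.11), as did S1PR2 (0.58 and 0.77). GPR183 differed for JVM2 minus MEC1 (−0.30), CCR6 for EHEB minus MEC1 (−1.79), CXCR4 for JVM2 minus MEC1 (0.85) and GPR183 for EHEB minus JVM2 (0.26). Each of these last 4 was lost in some fits that left out a library. GPR183 for JVM2 minus MEC1 was lost without MEC1_39, MEC1_186 or JVM2_234 (adjusted p = 0.0548 to 0.0724). CCR6 was kept only without MEC1_37, MEC1_186 or EHEB_134 (adjusted p = 0.0591 to 0.101 in the other 9 fits), CXCR4 only without JVM2_87 or JVM2_234 (0.0588 to 0.200 in 10), and GPR183 for EHEB minus JVM2 only without JVM2_232 or EHEB_134 (0.0520 to 0.222 in 10).

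For idelalisib, S1PR2 differed in all 3 pairs (0.88, 1.205 and 0.33), GPR183 likewise (−0.58, −1.22 and −0.64) and ITGAL likewise (1.29, 0.39 and −0.90). CXCR4 differed for JVM2 minus MEC1 (−1.47) and EHEB minus JVM2 (1.83), although JVM2 had few counts of it. ITGA4 differed for JVM2 minus MEC1 (−0.85) and EHEB minus MEC1 (−1.02), and CCR6 for EHEB minus MEC1 (−2.35). Fits with a library left out lost the S1PR2 difference of 0.33 in 8 of 12 (adjusted p = 0.0556 to 0.0867) and the ITGAL difference of 0.39 in 7 of 12 (0.0681 to 0.100). The former was kept without JVM2_85, EHEB_133, EHEB_134 or EHEB_286, the latter without MEC1_37, MEC1_190, EHEB_133, EHEB_134 or EHEB_286.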

How the results depend on the processing

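Of 258 results on single members, 141 were called and 116 of these kept their call and direction in every alternative and with every library left out. A left-out library changed the call of 45 results. The counts of members called that moved by more than 1.5 times were small. For idelalisib against ibrutinib in MEC1, 1 member was called, with 3 under DESeq2, 4 with the stricter filter, 2 in the joint fit and 1 to 2 with a library left out. In JVM2 the count was 3 and 1 to 3, and in EHEB it was 4, 2 in the pairwise fit and 2 to 3. For ibrutinib against DMSO it went from 1 to 3 under library size scaling in JVM2 (1 to 2 with a library left out) and from 4 to 2 without a filter in EHEB (2 to 3). For differences of the ibrutinib effect it went from 5 to between 3 and 5 for JVM2 minus MEC1, and from 2 to 1 without a filter for EHEB minus JVM2 (1 to 2). The sign changed for 3 values that were called either before or after the change but not both: CXCR4 with fludarabine in MEC1 under library size scaling (0.038, −0.26 to −0.17 with a library left out), CCR7 with ibrutinib in JVM2 without JVM2_232 (−0.16 to 0.19), and the difference of the fludarabine effect on CXCR5, EHEB minus MEC1, without MEC1_39 (−2.16 to 1.49). The cause was not tested. Library size scaling moved the median log2 fold change of all genes over DMSO by −0.09 to 0.25. The share of called genes that were higher then went from 48.4% to 74.1% with fludarabine in MEC1, from 50.6% to 69.1% with it in JVM2, from 48.9% to 61.8% with it in EHEB, from 49.1% to 62.2% with ibrutinib in JVM2 and 43.1% to 65.4% in EHEB, and from 48.8% to 59.5% with idelalisib in JVM2 and 45.3% to 59.6% in EHEB. For idelalisib against ibrutinib in MEC1 it went from 39.1% to 11.3%. Against fludarabine it went from 49.5% to 36.3% with ibrutinib and 47.8% to 27.9% with idelalisib in MEC1, and from 50.9% to 37.4% and 50.3% to 38.3% in JVM2. DESeq2 gave no adjusted p for 18 member results, which count neither as kept nor as lost. No paired analysis was possible because every library number occurs once and groups share none. Low counts limit CXCR4 in JVM2 and CXCR5 in MEC1, and uneven libraries limit S1PR1.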
